A study of Rattus norvegicus with 16 samples.

Results

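The region described here is a stretch of 400 kb on the plus strand of rat chromosome 17, from 75.3 to 75.7 Mb in the rn6 build, in which protein-protected sites (PPS) lie close together. Its members are all PPS on that strand whose midpoint falls between those limits. They number 1388 of the 329742 PPS in the 4 deposited lists. The region was selected on the number of listed PPS per length, which is therefore given as a description and not tested. The sites come from protein interaction profile sequencing (PIP-seq) of primary cortical neurons taken from Sprague–Dawley rats at embryonic day 18. The control group consists of cultures labelled control, and the NMDA group of cultures given 10 µM N-methyl-D-aspartate, an agonist of a class of glutamate receptors. The labels allow culture for 15 or 21 days and exposure for 4 or 24 hours without saying which applies, and their extraction text, which names purified nuclei and 3 grams of tissue, does not describe cultured cells. Each group has 2 lists, from replicates numbered 2 and 3, and each list joins 4 libraries. Whether the replicates are separate cultures is not labelled, and p-values may then measure technical spread only. Read depth is unknown. No gene levels accompany the lists, and the neuronal identity of the cells could not be checked against marker genes. Below, values of single lists are given in the order control replicates 2 and 3, then NMDA replicates 2 and 3.

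RNA in cells is covered by RNA-binding proteins that take part in its splicing, end formation, transport, translation and decay. In PIP-seq, crosslinked RNA is digested once with its proteins in place and once after the proteins have been removed, and stretches that survive only with protein are called as PPS. RNase ONE (ssRNase) cuts unpaired RNA and RNase V1 (dsRNase) cuts paired RNA, so the RNase that reveals a PPS bears on whether the RNA there is unpaired or paired once protein is gone. The lists hold positions and a score per peak, the submitters' own, whose scale is not stated. No rn6 sequence or annotation was used. The region is therefore described by position, with no gene, exon or intron named and no sequence shown.

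Some lists share PPS of identical coordinates and score on other strands. Control replicate 3 and NMDA replicate 3 shared 9159 of these there, or 15.97% of the smaller list, and control replicate 2 and NMDA replicate 3 shared 5414. On the plus strands of chromosomes 11, 12 and 16 to 20, called the 7 plus strands below, pairs of lists shared 0 to 9 such PPS. In the region the only shared one was a single PPS of control replicate 3 and NMDA replicate 3.

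PPS in the region made up 21.2% and 18.4% of those on the plus strand of chromosome 17 for control (317 of 1492 and 270 of 1469), and 21.9% and 25.4% for NMDA (359 of 1641 and 442 of 1737). The stretch spans 0.441% of the chromosome as far as PPS reach. PPS were 50.8 to 77.1 times as dense in it as on the rest of the strand, depending on the list. Exact 95% binomial intervals, which cover counting error only, ran from 16.4% to 20.5% for the lowest share and from 23.4% to 27.6% for the highest. Of the 10 fullest steps of 10 kb on this strand, 6 lay in the region. The fullest step outside it held 81 PPS over the 4 lists, and the median occupied step of the strand held 3, against a median of 26.5 in the region.

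Within the region the PPS formed a profile with 2 crests that recurred in every list. The first crest, from 75.35 to 75.45 Mb, held 147, 130, 152 and 195 PPS, or 42.3% to 48.1% of each list's members. The second, from 75.64 to 75.67 Mb, held 53, 54, 43 and 64. Its step from 75650001 to 75660000 was the fullest of the strand, with 29, 33, 24 and 31 PPS, or 117 over the lists. The next 4 steps of the region by number were consecutive in the first crest, from 75360001 to 75400000, with 83, 78, 70 and 70 PPS over the 4 lists. Between the crests, from 75.45 to 75.64 Mb, steps held 10 to 52 PPS, with the maximum of 52 from 75590001 to 75600000. The emptiest occupied step, which begins at 75340001, held 1, 0, 3 and 2 PPS. That step, the crests and the 5 blocks of the region used below were read off the summed profile after its values were seen.

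**Figure D1:**
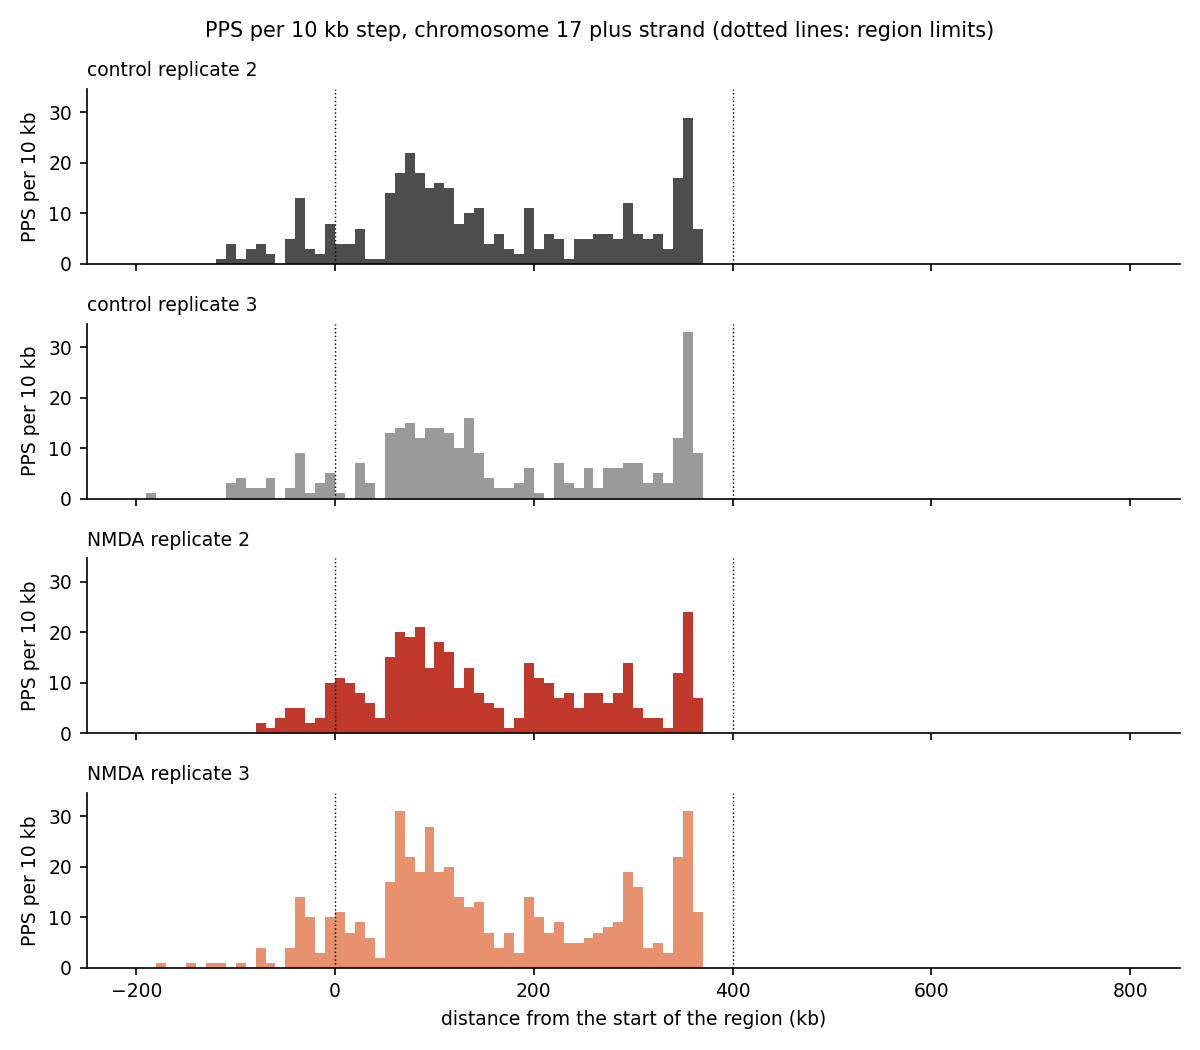
Number of PPS per 10 kb step (y) along the plus strand of chromosome 17, by distance from the start of the region in kb (x), with 1 panel for each list and dotted lines at the limits of the region. All 4 lists show a broad crest from 50 to 150 kb, a narrow one between 340 and 370 kb, and nothing from there to the limit of the region.

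The upstream limit of the region cut through occupied sequence, whereas the downstream end was abrupt. The last 10 kb before the upstream limit held 8, 5, 10 and 10 PPS, and the first 10 kb inside held 4, 1, 11 and 11. The 50 kb before the limit held 20 to 41 PPS per list, and the 50 kb before that held 6 to 12. Downstream, the last PPS of the region ended at 75664326 for control replicate 2, 75662322 for control replicate 3, 75662334 for NMDA replicate 2 and 75662312 for NMDA replicate 3. All but the first of these lie in 1 site shared by the 4 lists, chr17:75662242-75662337. The next PPS on the strand began between 76336283 and 76359035, which left 674 to 695 kb without any PPS in each list. The last 3 steps of the region, from 75670001 on, were accordingly empty. The minus strand held 0 PPS between the same limits in all 4 lists, although it held 888 to 2575 over the whole chromosome.

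The order of steps from full to empty was similar among the lists. Over the 37 occupied steps, Pearson's r between lists ranged from 0.755 (control replicate 3 with NMDA replicate 2) to 0.901 (control replicate 2 with NMDA replicate 3), and Spearman's rho from 0.624 to 0.849. Over the 791 occupied steps of the rest of the strand, most of them with few PPS, r ranged from 0.721 to 0.800 and rho from 0.415 to 0.569. These correlations are across steps, which share libraries and neighbours and are not independent, so no p is given. The control lists correlated with each other at r = 0.895 and the NMDA lists at 0.850, values inside the range of pairs of different treatment.

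Neighbouring PPS in the region were separated by a median gap of 554, 555, 541.5 and 420 bp, and gaps under 100 bp made up 12.3% to 22.2% of all gaps. On the rest of the strand the median gap was 1282.5 to 2166 bp. In its dense steps, those with at least 17 PPS over the 4 lists, the median was shorter than in the region. It was 220, 259, 214.5 and 249 bp there, and 27.5% to 35.7% of gaps were under 100 bp. Those gaps were taken only between PPS of the same step, so the measures are not fully alike. Gap length follows from the density that chose the region, and is given as a description.

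The clearest difference between the region and the rest of the strand was in the RNase behind each PPS. PPS seen with ssRNase alone made up 14.2% and 16.7% of the region's PPS for control, and 4.18% and 14.0% for NMDA. On the rest of the strand the shares were 35.1%, 39.9%, 11.5% and 38.1% in the same order. The region was lower in 4 of 4 lists, by 18.9 ± 7.84 percentage points (SD of the differences, n = 4). The exact two-sided permutation test, exchanging region and rest within lists, gave p = 0.13, the smallest that 4 lists allow, and an adjusted p of 0.286 over 16 such comparisons. NMDA replicate 2 had few PPS from ssRNase alone on both sides.

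PPS supported by both RNases were also a smaller share. In every list this share equalled the share of PPS made of several peaks. It may thus not be independent of density or of the ssRNase-only contrast. They made up 6.94% and 0.741% for control and 1.67% and 11.3% for NMDA, against 13.4%, 6.42%, 9.28% and 15.6% on the rest of the strand. The difference was 6.0 ± 1.39 percentage points (SD, n = 4), again in 4 of 4 lists, with an exact p = 0.13 and an adjusted p of 0.286. PPS from dsRNase alone filled the remainder, with 78.9%, 82.6%, 94.2% and 74.7%, which correspond to 250, 223, 338 and 330 PPS.

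Pooled over the strand, dense steps outside the region had higher ssRNase shares. These are the 60 steps with at least 17 PPS over the 4 lists, the region's lower quartile. There 41.6%, 44.1%, 12.3% and 40.8% of PPS came from ssRNase alone, a difference of -22.4 ± 9.52 percentage points for the region (SD, n = 4, exact p = 0.13, adjusted p = 0.286). For both RNases the difference was -9.31 ± 2.27 points (SD, n = 4, exact p = 0.13, adjusted p = 0.286). Among the steps of the rest, PPS from ssRNase alone made up 28.3% where a step had 1 to 7 PPS over the lists and 34.7% where it had 40 or more. The region's steps held 10.4% at 8 to 19 PPS, 10.1% at 20 to 39 and 13.1% at 40 or more.

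Low ssRNase shares did occur in single dense windows outside the region. The 7 plus strands had 53 windows of 100 kb with at least 100 PPS over the lists. Ordered from the lowest share of ssRNase-only PPS, the region's 4 windows ranked 6, 7, 8 and 17, and the window just upstream, which begins at 75200001, ranked 10, at 11.3%. On the same strand, the windows that begin at 63500001 and 63400001 ranked 2 and 3, with 4.72% of 106 PPS and 6.38% of 141 PPS, below all 4 windows of the region. On chromosome 16, plus strand, from 77.1 to 77.3 Mb, ssRNase alone gave 5.56%, 16.7%, 1.10% and 13.4% of PPS. The region stood 3.09 ± 3.93 percentage points above these (SD, n = 4, exact p = 0.25, adjusted p = 0.364), less than the spread between lists. On chromosome 11, plus strand, from 34.6 to 34.7 Mb, the shares were 35.9%, 31.2%, 6.15% and 21.4%. There the region was lower in 4 of 4 lists, by 11.4 ± 8.60 points (SD, n = 4, exact p = 0.13, adjusted p = 0.286). For both RNases the region was higher than the chromosome 16 stretch in 3 of 4 lists. The difference was 2.21 ± 3.66 points (SD, n = 4, exact p = 0.375, adjusted p = 0.462). Against the chromosome 11 stretch it was -8.37 ± 1.63 points, lower in 4 of 4 lists (SD, n = 4, exact p = 0.13, adjusted p = 0.286).

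**Figure D2:**
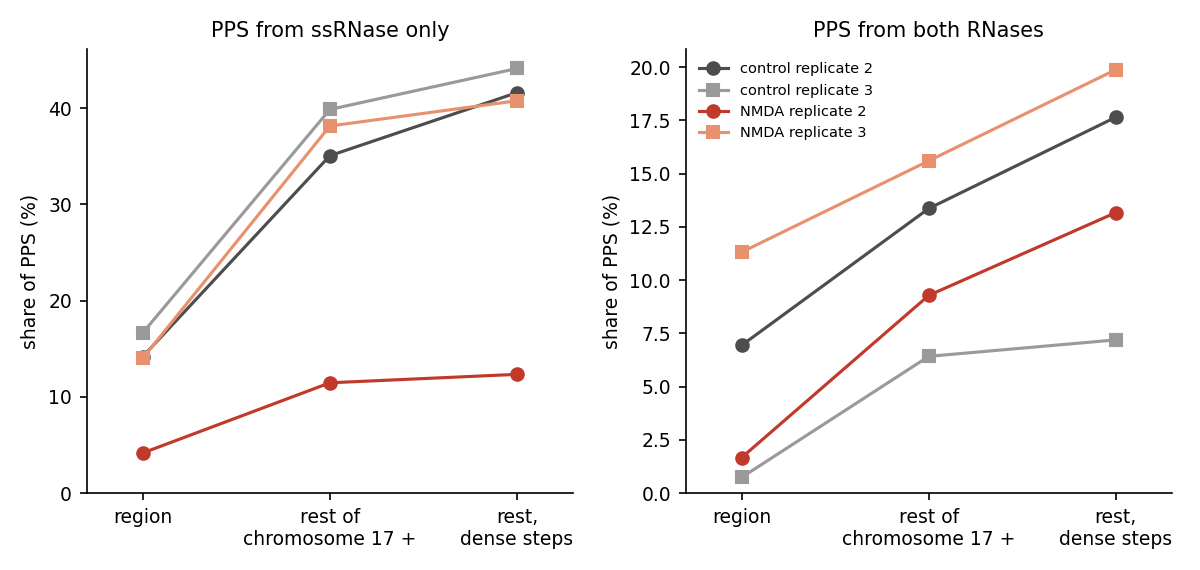
Share of PPS in percent (y) from ssRNase alone (left) and from both RNases (right) in the region, on the rest of the chromosome 17 plus strand and in the dense steps of that rest (x), with 1 line for each list. Every line rises from the region to the rest and again to the dense steps, and NMDA replicate 2 lies lowest for ssRNase alone throughout.

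The ssRNase-only PPS were not spread evenly within the region. They made up 30.2%, 25.9%, 9.30% and 29.7% of the PPS from 75.64 to 75.67 Mb. From 75.35 to 75.45 Mb the shares were 12.9%, 13.1%, 1.97% and 15.4%, and from 75.30 to 75.35 Mb they were 5.88%, 9.09%, 2.63% and 5.71%. From 75.45 to 75.55 Mb they were 4.35%, 10%, 7.14% and 9.86%, and from 75.55 to 75.64 Mb 13%, 22.2%, 3.57% and 5.19%. The end next to the empty stretch thus had the highest share of the 5 blocks in every list. Its lead was narrow for control replicate 3 and for NMDA replicate 2, with 54 and 43 PPS there. In its fullest step 26 of 117 PPS came from ssRNase alone and 16 from both RNases. Because these blocks were chosen after the values were seen, no test is given.

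Peak numbers in the lists bear on the same contrast. Each peak carries a number that rose with position without exception for each list and RNase on this strand, and most numbers are missing from the lists. What the numbering counts is not stated. For dsRNase, the numbers between the first and last peak of the region amounted to 2548, 3486, 2376 and 3236. Of these, 10.8%, 6.48%, 14.5% and 11.9% were listed, against 6.64%, 2.97%, 9.60% and 6.29% on the rest of the strand. For ssRNase the spans were 1681, 1998, 937 and 1764 numbers, of which 3.99%, 2.35%, 2.24% and 6.35% were listed in the region, and 6.70%, 4.09%, 4.75% and 7.37% on the rest.

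The listed share was thus higher in the region for dsRNase and lower for ssRNase, in 4 of 4 lists each. The numbers themselves were concentrated in the region for both RNases. It took 12.5% to 19.5% of the strand's dsRNase numbers and 12.8% to 16.3% of its ssRNase numbers, but 23.1% to 31.4% of listed dsRNase peaks and 7.27% to 13.6% of listed ssRNase peaks. Across the empty stretch that follows, the numbering advanced by 25 to 107 for dsRNase and by 16 to 138 for ssRNase. Since density chose the region, these shares are a description.

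**Figure D3:**
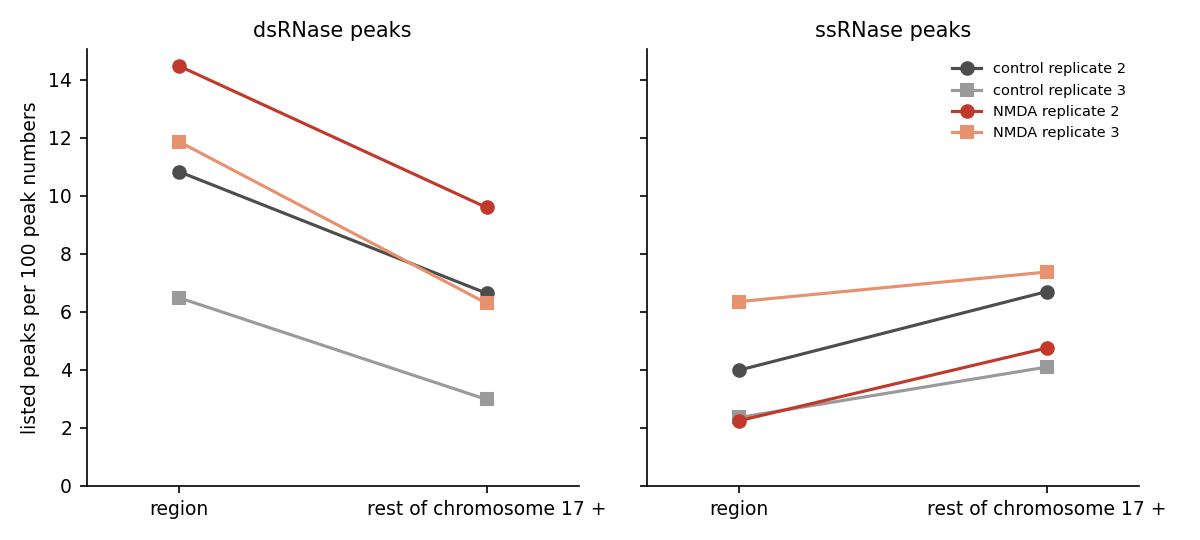
Listed peaks per 100 peak numbers (y) in the region and on the rest of the chromosome 17 plus strand (x), for dsRNase (left) and ssRNase (right), with 1 line for each list. All dsRNase lines fall, from between 6.48 and 14.5 in the region to between 2.97 and 9.60 on the rest, and all ssRNase lines rise.

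PPS in the region differed little in length from the strand at large. The median was 54, 45, 51 and 50 bp, against 54, 46, 50 and 51 bp on the rest of the strand, a difference of -0.25 ± 0.957 bp (SD, n = 4, exact p = 1). Against other dense steps, whose medians were 60, 50, 52 and 59 bp, the region fell short in 4 of 4 lists, with a difference of -5.25 ± 3.30 bp (SD, n = 4, exact p = 0.13, adjusted p = 0.286). PPS from dsRNase alone had medians of 53, 44, 50.5 and 44 bp in the region and 50, 40, 49 and 39 bp on the rest, longer in 4 of 4 lists by a mean of 3.38 bp (exact p = 0.13). That restriction was added after seeing the data.

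The longest PPS of each list lay at chr17:75363750-75364343 (control replicate 2, 594 bp, 4 peaks of both RNases), chr17:75599702-75599836 (control replicate 3, 135 bp), chr17:75364073-75364296 (NMDA replicate 2, 224 bp) and chr17:75656329-75656563 (NMDA replicate 3, 235 bp). The longest ones of control replicate 2 and NMDA replicate 2 overlapped. The shortest PPS of each list measured 2 to 9 bp.

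Scores had the median of the strand in 3 of the lists, with fewer high values in all 4. The median score was 6.82, 5.86, 7.43 and 6.82 in the region, and 6.82, 6.82, 7.43 and 6.82 on the rest (mean difference -0.24 ± 0.480, SD, n = 4, exact p = 1). Scores take few distinct values, and the most frequent ones in the region were 5.4, 5.4, 5.61 and 5.4, carried by 30.3%, 43.7%, 38.7% and 23.5% of PPS. PPS scoring at least 10 made up 11%, 5.56%, 12.8% and 15.2%, against 16.6%, 10.3%, 16.6% and 17.3% on the rest. The highest scores of the region were 21.31 at chr17:75659492-75659638, 21.46 at chr17:75365539-75365602, 20.91 at chr17:75394105-75394172 and 28.83 at chr17:75414199-75414286. Each of these maxima lay at a different position.

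Sites were formed by joining PPS of all lists that overlapped by at least 1 bp on the strand. The region held 808 sites, of which 475 (58.8%) were in 1 list, 202 (25.0%) in 2, 93 (11.5%) in 3 and 38 (4.70%) in all 4. On the rest of the strand 58.3% of 2745 sites were in 1 list and 7.69% in all 4, and among the 806 sites of dense steps 44.3% and 14.5%. Counted over PPS, sites of all 4 lists took in 14.8%, 17%, 12.8% and 12.7% of the region's PPS, against 22.6%, 22.3%, 21.4% and 20% on the rest of the strand. The region was lower in 4 of 4 lists, with a mean difference of -7.21 percentage points (exact p = 0.13). Against dense steps the mean difference was -19.96 points (exact p = 0.13). Among PPS made of a single peak the difference to the rest was only -0.971 points, with 1 list going the other way (exact p = 0.25).

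**Figure D4:**
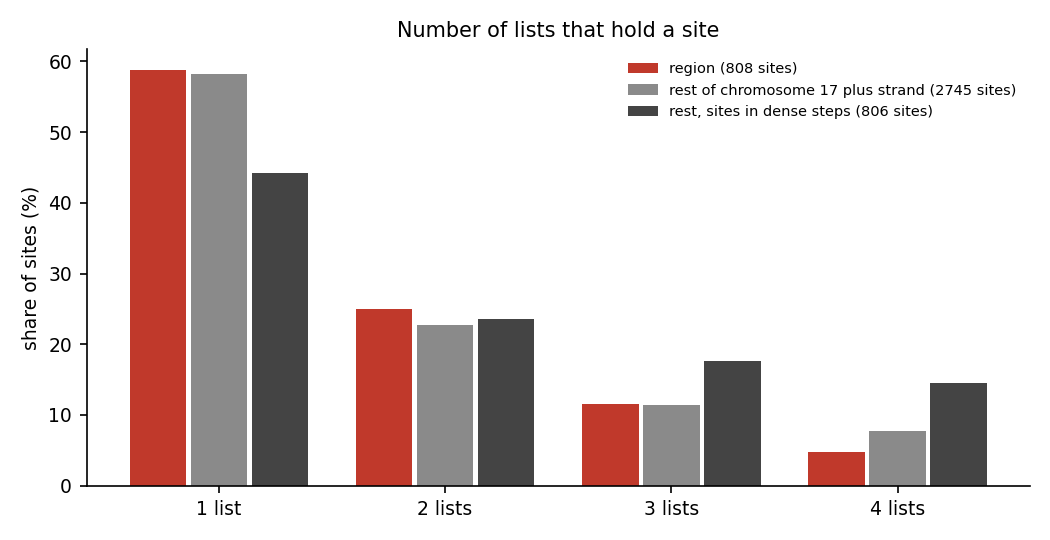
Share of sites in percent (y) held by 1, 2, 3 or 4 lists (x) in the region, on the rest of the chromosome 17 plus strand and in the dense steps of that rest. The bars of the region and the rest are close at 1 list, 58.8% and 58.3%, while the dense steps have the most sites in all 4 lists, 14.5% against 4.70% in the region.

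The recurrent sites lay mostly in the crests, which also held many of the region's 808 sites of any kind. Of the 38 sites in all 4 lists, 12 lay from 75.64 to 75.67 Mb, among 94 sites there. Of these 12, 9 were in the step from 75650001 to 75660000. From 75.35 to 75.45 Mb lay 18 of the 38, among 333 sites, a share near that of the whole region. The blocks from 75.45 to 75.55 Mb and from 75.55 to 75.64 Mb held 3 and 5, among 152 and 151 sites. None lay from 75.30 to 75.35 Mb, among 78 sites. These 38 sites had a median length of 129 bp, and 26 of them contained a peak from ssRNase in at least 1 list. Of the 475 sites in a single list, which had a median length of 47 bp, 54 contained one. A joined site with more PPS has more chances to hold such a peak and to be long. No site was held by all 4 lists when only PPS with an ssRNase peak were used. On the rest of the strand a mean of 11.6% of such PPS lay in sites of all 4 lists. In the region NMDA replicate 2 had only 15 PPS from ssRNase alone and 6 from both RNases, which limits such sites to few.

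Ranked by the lowest of their scores over the lists, the first of these sites was chr17:75659389-75659730, with scores of 21.31, 11.7, 13.7 and 13.5. The next was chr17:75655812-75655964, with 13.48, 9.98, 13.5 and 11.49. They were followed by chr17:75353330-75353577, chr17:75378824-75378981 and chr17:75659856-75660131, each with a lowest score of 8.35, and by chr17:75656328-75656563 at 8.14. Of these 6 sites, 4 lay in the downstream crest, between 75655812 and 75660131. The last site of all 4 lists before the empty stretch, named above, had scores of 5.4, 8.95, 7.43 and 17.35. The longest, chr17:75363655-75364343, joined 16 PPS over 689 bp in the first crest.

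Overlap between single lists varied. In the region 25.9% to 48.5% of one list's PPS overlapped a PPS of another list, against 32.7% to 50.7% on the rest of the strand. The control lists overlapped each other for 30.6% and 37.4% of their PPS, and the NMDA lists for 38.4% and 32.1%. Control replicate 3 and NMDA replicate 3 overlapped for 48.5% and 29.2%, where the rest of the strand had 41% and 36.5%.

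NMDA was set against control to ask whether protection of the region differed with treatment. The region's share of the strand's PPS averaged 19.8% ± 2.03 over the control lists and 23.7% ± 2.52 over the NMDA lists (SD, n = 2). The groups did not overlap. The difference of 3.85 percentage points had an exact permutation p of 0.33, the smallest that 2 lists against 2 allow, and an adjusted p of 0.833 over 5 comparisons. NMDA replicate 2 was close to control replicate 2, with 21.9% against 21.2%. The difference was 2.06 points without NMDA replicate 3 and 2.41 without control replicate 3. It was 5.63 without NMDA replicate 2 and 5.28 without control replicate 2. With all 4 lists and PPS holding a dsRNase peak it was 2.69 points (exact p = 1), and with PPS holding an ssRNase peak 1.42 points (exact p = 1).

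The make-up of the region's PPS varied widely between lists of the same group. PPS from ssRNase alone averaged 15.4% ± 1.75 for control and 9.10% ± 6.96 for NMDA (SD, n = 2, exact p = 0.33, adjusted p = 0.833). That difference of -6.33 points shrank to -1.40 when NMDA replicate 2 was left out, and was -11.3 when NMDA replicate 3 was. PPS from both RNases averaged 3.84% ± 4.38 and 6.49% ± 6.82 for control and NMDA (SD, n = 2, exact p = 0.667). Median lengths averaged 49.5 ± 6.36 and 50.5 ± 0.707 bp (exact p = 1), and median scores 6.34 ± 0.679 and 7.12 ± 0.431 (exact p = 0.667). For these 3 measures the groups overlapped or touched.

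Step by step, PPS numbers were compared on the scale log2(PPS per 10000 PPS of the list + 0.5) with limma, over all 11626 stranded steps of 10 kb with at least 8 PPS over the lists, of which 36 lay in the region. Of these 36, 0 passed an adjusted p under 0.05, as did 0% of all steps, and the lowest adjusted p in the region was 0.971. An unadjusted p under 0.05 was reached by 3 steps of the region, all higher in NMDA, against 3.16% of all steps in either direction and 1.31% higher in NMDA. The limma fit was also limited to the 7 plus strands, still scaled by all PPS of each list. There 0 of the 36 passed (0.0722% of the 1385 steps did), with a lowest adjusted p of 0.171. In that fit 6 steps of the region had an unadjusted p under 0.05, all higher in NMDA. Of all steps there, 7.15% did in either direction and 4.33% higher in NMDA. Scaled by the PPS of those strands, 4 of the 36 did, against 5.70% of steps, with a lowest adjusted p of 0.727. The 6 steps were pairs 200 kb apart with similar counts. From 75300001 and 75500001 these were 4, 1, 11 and 11, and 3, 1, 11 and 10. From 75310001 and 75510001 they were 4, 0, 10 and 7, and 6, 0, 10 and 7. The other pair began at 75330001 and 75530001. Such pairs may not be independent, and why they are alike was not tested.

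The steps with the largest differences lay at the upstream end and in the middle of the region. From 75500001 to 75510000 there were 3 and 1 PPS for control and 11 and 10 for NMDA, a log2 difference of 1.28 (SE 0.367). From 75300001 to 75310000 there were 4 and 1 against 11 and 11, a log2 difference of 1.24 (SE 0.386). From 75310001 to 75320000 there were 4 and 0 against 10 and 7, a log2 difference of 1.16 (SE 0.417). The limma adjusted p was 0.971 for each. In these steps both NMDA lists held more PPS than both control lists.

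The lowest differences lay towards the downstream end. From 75620001 to 75630000 the counts were 6 and 5 for control and 3 and 5 for NMDA (log2 difference -0.28, SE 0.368). The step that begins at 75630001 had 3 and 3 against 1 and 3 (-0.26, SE 0.363), and the fullest step had 29 and 33 against 24 and 31 (-0.20, SE 0.306). The limma adjusted p was 0.973 for each. In none of these steps did both NMDA lists fall below both control lists on the scaled values.

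On the scaled values, 14 of the 36 steps had both NMDA lists above both control lists, where 16.3% of all steps did, and 20.4% on the 7 plus strands. The reverse order occurred in 0 of the 36, against 12.2% and 14.2%. The NMDA mean was higher in 31 of the 36 steps (86.1%), against 56.2% of all steps tested and 50.2% on the 7 plus strands. The median log2 difference of the 36 was 0.21, beside 0.07 over all steps tested. Neighbouring steps share lists and are not independent, and the pairs of steps 200 kb apart with similar counts may not be either. The number with a higher NMDA mean was 26 of 36 when lists were scaled by their PPS on this strand, 22 of 36 with PPS holding a dsRNase peak, and 5 of the 12 testable steps with PPS holding an ssRNase peak. It was 22 of 36 without control replicate 2 and likewise without NMDA replicate 3. With PPS holding a dsRNase peak, the region's median log2 difference was 0.056, below the 0.204 of all steps tested. With PPS holding an ssRNase peak it was -0.064, below 0.127.

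**Figure D5:**
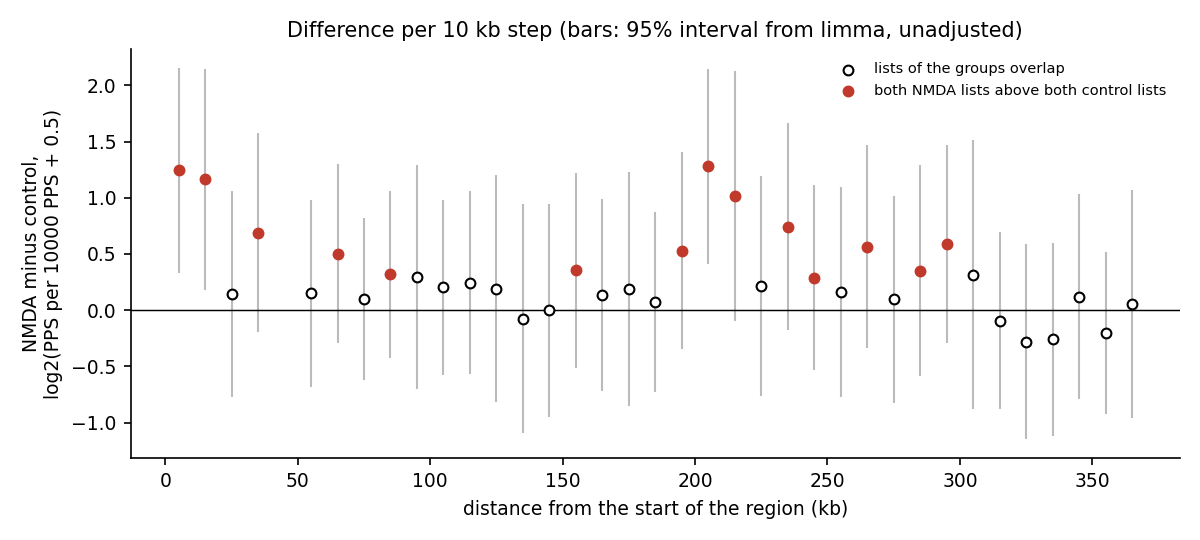
Difference between NMDA and control in log2(PPS per 10000 PPS + 0.5) (y) for the 36 tested steps by distance from the start of the region in kb (x), with bars for the unadjusted 95% interval from limma and filled points where both NMDA lists exceed both control lists. The highest points lie in the first 20 kb and near 200 kb, and those beyond 310 kb lie between -0.28 and 0.12.

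By block, the ratio of NMDA to control was highest in the blocks with 20.2 and 21.7 PPS per 10 kb. These blocks also hold the pairs of steps with similar counts named above, and the effect of either was not tested. The block from 75.30 to 75.35 Mb held 17, 11, 38 and 35 PPS, a ratio of mean numbers of 2.61, and the block from 75.45 to 75.55 Mb held 46, 30, 70 and 71, a ratio of 1.86. The block from 75.55 to 75.64 Mb, with 54, 45, 56 and 77, had a ratio of 1.34, the first crest a ratio of 1.25 and the downstream crest a ratio of 1.0. As a share of the region's PPS, the downstream crest took 16.7% and 20% for control and 12% and 14.5% for NMDA. These are numbers not scaled by list size, in blocks set after the values were seen, and no test is given.

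Sites in both lists of a treatment and in neither of the other were few. NMDA-specific sites numbered 34, or 4.21% of the region's sites, against 3.68% on the rest of the strand. Control-specific sites numbered 21, or 2.60%, against 2.19%. Sites held only by a control and an NMDA list numbered 49 for replicates 2 and 40 for replicates 3. They numbered 35 for control replicate 2 with NMDA replicate 3 and 23 for control replicate 3 with NMDA replicate 2. By these numbers, sharing was not more frequent within a treatment than across. All 21 control-specific sites came from dsRNase alone, as did 24 of the 34 NMDA-specific ones. So did 421 of the region's 475 sites in a single list (88.6%) and 12 of its 38 in all 4. The same shares on the rest of the strand are not given here, so no trait of either treatment is read from these counts. By the lower of their scores, the leading NMDA-specific sites were chr17:75393609-75393664, chr17:75434570-75434686 and chr17:75593937-75594005. Each scored 7.43 in NMDA replicate 2, and they scored 8.35, 11.7 and 11.7 in NMDA replicate 3. The leading control-specific sites were chr17:75328709-75328755, chr17:75372456-75372521 and chr17:75527270-75527316, each with scores of 9.98 and 8.35. The sites from 75328709 and 75527270 were also alike in length, 47 bp, with PPS of 43 and 47 bp. They lie in the steps from 75320001 and 75520001, which had similar counts and 3 control-specific and 2 NMDA-specific sites each. Such sites may not be independent, and neither may the numbers above that include them. Why they are alike was not tested. All 6 came from dsRNase alone.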

How the data were processed

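The submitters' processing notes name cutadapt 1.2.1, TopHat2 2.0.10 and the rn6 build. The deposited lists (CSAR, false discovery rate of 5%, per the labels) give 1 score per peak. Caller settings are not given in the sources used here. A PPS of several peaks took its top peak's score.

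The members, lists and rules were chosen with earlier results of these data known. Region and rest were compared by exact permutation within lists, treatments by exact permutation over 4 lists, with Benjamini-Hochberg adjustment over the comparisons of each family. The step model used limma 3.58.1 (lmFit, eBayes with trend) under R 4.3.3. Python 3.11.15, numpy 2.4.6, pandas 2.3.3 and scipy 1.17.1 were used, and the step and site code was tested on simulated data. Named steps are the 5 fullest, the 3 emptiest and the 3 most changed per direction. Named sites are the 6 with the highest lowest score in all 4 lists and the 3 leading per treatment, and the longest and highest-scoring PPS are named per list. Alternatives covered score, limits, single peaks, overlap, thinning, RNase, step size, scaling and left-out lists. Coordinates are 1-based.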

Additional observations from a re-analysis of the deposited data

How the results depend on the processing

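Of 136 alternative values, 118 kept the direction of their result or, for counts, stayed within 1.5 times it, 8 changed sign and 10 moved otherwise. The lower ssRNase-only and both-RNase shares of the region and its lower share of PPS in sites of all 4 lists kept their sign in every alternative run. The difference in median length between region and rest, -0.25 bp, was 0 for limits of 75.35 and 75.65 Mb, 0.375 for single-peak PPS, 3.38 for dsRNase-only PPS, and -0.667 to 0 when each list was left out. The difference in median score, -0.24, rounded to 0.13 among PPS scoring above the median of their list and was -0.32 to 0 when each list was left out. Between treatments, the difference in median length, 1 bp, was 0 in the inner limits, -0.25 for single-peak PPS, -1.25 for dsRNase-only PPS and -3.5 to 5.5 when each list was left out. That in PPS from both RNases was -2.17 to 7.47 when each list was left out. The cause of these changes was not tested. NMDA-specific and control-specific sites numbered 5 and 6 among PPS above the median score and 8 and 2 among PPS with an ssRNase peak, both of which hold fewer PPS. Deviations of lists with the same replicate number did not correlate over 1385 steps (-0.0131). In the region, though, sites held only by a control and an NMDA list numbered 49 and 40 for lists of the same number. They numbered 35 and 23 for lists of different number. Whether the lists are paired by replicate number is not labelled. With the number as a block, 0 steps of the region passed over all strands, where 0.688% of all steps did, and 3 of 36 passed on the 7 plus strands, where 0.65% did, a fit added after seeing the data, all higher in NMDA (limma adjusted p = 0.0170, 0.0258 and 0.0162 from 75300001, 75310001 and 75500001). The steps from 75300001 and 75500001 are a pair of similar counts, as given above, and may not be independent. The share of PPS from both RNases has no single-peak alternative, since such PPS have 1 RNase. Without read counts, the depth behind a missing PPS is unknown.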
